A study of Botryllus schlosseri with 12 samples.

Results

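Colonies of Botryllus schlosseri were compared at 24 h post-injury (24 hpi) and directly after injury (0 hpi), over every contig of the transcriptome, to ask how RNA levels in the tissue that remains after surgery differ once regeneration is under way for a day. The comparison takes 6 of the 12 libraries of the study, 3 from colonies at 24 hpi and 3 from colonies at 0 hpi. It includes all 32561 contigs of the table, of which 31383 passed a filter on low counts and were tested. At both times all zooids and buds had been cut away from colonies at stage D of the blastogenic cycle, and what was left, the vasculature inside its tunic, was frozen either straight away (0 hpi) or after 24 h in filtered seawater (24 hpi). Colonies frozen at 6 and 18 hpi make up the other 6 libraries. Every library came from its own subclone of a single isogenic strain, so that the spread between libraries holds no differences between genotypes, and no uninjured colony was sequenced. The study reports that small remnants of adult zooids often stayed in the tunic after its dissections, and it proposes that regeneration starts from them. Any fragment of zooid or bud that stayed in the tunic would be part of the sample.

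In botryllid ascidians the zooids of a colony are joined by a network of vessels lined by a simple epithelium, which ends in blind ampullae at the colony margin and carries blood cells of many types. When all zooids are lost, new zooids can arise within this network, a process called whole-body regeneration. The vessels contract, fuse and are rebuilt while this goes on, and the blood carries the cells of clotting and of innate immunity. Ascidians have complement proteins and many fibrinogen-like and lectin-like proteins, but the reading of any of them as a homologue of a mammalian clotting or vessel gene rests on its position in a phylogeny.

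The rows of the table come from a de novo assembly and carry no gene names. A gene name is used here only for contigs that the phylogenies of the study label, and markers of vessel epithelium, blood cells or zooid tissue were not analysed here. A row is an open reading frame of an assembled transcript and is called a contig here, as in the study. The 32561 rows come from 32113 transcripts, since 842 rows share their transcript with at least 1 other row, so that a transcript can be counted more than once. Contigs that the assembler Trinity groups as variants of the same gene share a Trinity gene, and Trinity genes built from the same connected set of reads share a component. The values are estimated counts, scaled here to CPM, counts relative to a common library total, with TMM factors. CPM are not divided by contig length, so they compare a contig between libraries and not contigs with each other. Ranks, percentiles and abundance classes by CPM below therefore depend on contig length as well.

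The 3 libraries of 24 hpi held 3808021, 2076577 and 3895247 counts, against 2949018, 3992984 and 3465134 in the libraries of 0 hpi. Replicates at 24 hpi lay 0.728 to 0.931 apart (root mean square difference of log2 CPM over contigs), replicates at 0 hpi 0.692 to 0.727, and libraries of 24 and 0 hpi 1.06 to 1.24. The largest of the distances within 24 hpi was that between replicates 1 and 2, and replicate 2 was the shallowest of the 12 libraries. The number of contigs that together hold the first 50% of the counts was 2228, 1546 and 1640 at 24 hpi, against 1780, 1709 and 1924 at 0 hpi. These averaged 1805 ± 370 and 1804 ± 110 (SD, n = 3 each; two-sided exact permutation test, p = 1), where 0.1 is the smallest p that 3 libraries against 3 can give. At equal depth, 31767 ± 376 contigs had a count at 24 hpi and 32065 ± 22.5 at 0 hpi (SD, n = 3 each; exact permutation test, p = 0.2).

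A contig was called when its log2 fold change was above 1 in size and its p from edgeR's quasi-likelihood test, after Benjamini-Hochberg adjustment over the contigs tested, was under 0.05; the study uses the same limits. At 24 hpi, 3164 of the 31383 contigs differed from 0 hpi by this rule, which is 10.1%. Of these, 1110 were higher at 24 hpi (3.54% of those tested) and 2054 were lower (6.54%), so that 64.9% of the calls were lower (95% Wilson interval 63.2 to 66.6%, counting error only). That interval takes contigs as independent, and with a library left out the share was 60.6 to 64.8%. In assembled transcripts, the calls came to 1107 that rose and 1989 that fell, with 0 called in both directions, and in Trinity genes to 986 with a contig that rose and 1738 with a contig that fell. After TMM scaling, the median log2 fold change over all tested contigs was 0.01, with quartiles at -0.38 and 0.37. TMM factors assume that most contigs do not change, so a centre near 0 is largely set by the scaling. It does not show that RNA levels as a whole were unchanged. With library size alone the median was 0.075. In RNA from a whole piece of tissue, fewer cells of a type and less RNA per cell cannot be told apart.

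Among the 1110 contigs that rose, all 3 libraries of 24 hpi lay above all 3 of 0 hpi for 1056, against 13% of all tested contigs. Among the 2054 that fell, all 3 libraries of 24 hpi lay below all 3 of 0 hpi for 2012, against 14.7% of all tested. These counts describe contigs that the test had already selected. With each of the 6 libraries left out in turn, 624 of the contigs that rose and 1370 of those that fell were called in all 6 fits.

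The falls were larger than the rises as well as more numerous. Contigs called lower had a median log2 fold change of -2.05, and contigs called higher one of 1.50. A difference of more than 4-fold was reached by 1053 of the contigs that fell (51.3%) and by 305 of those that rose (27.5%). Above a log2 fold change of 5 in size, 217 contigs fell, from 184 transcripts, and 34 rose, as the bars of called contigs by size of change show. In the middle of their range, contigs that rose had a median of 23.9 CPM at 24 hpi and 7.63 CPM at 0 hpi, and contigs that fell had a median of 5.42 CPM at 24 hpi and 28.2 CPM at 0 hpi. All tested contigs had medians of 12.8 CPM at 24 hpi and 13.2 CPM at 0 hpi.

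**Figure D1:**
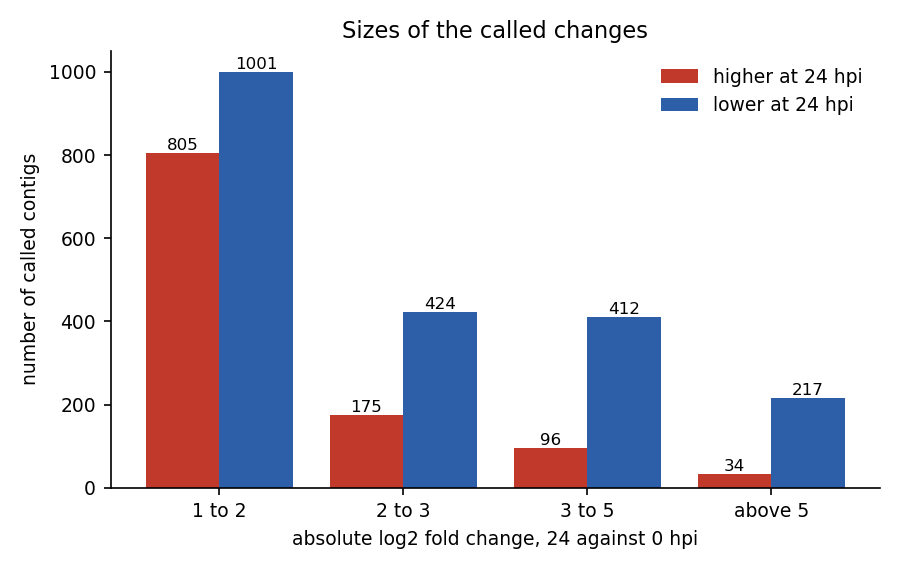
Number of called contigs by size of change, with the absolute log2 fold change of 24 against 0 hpi on the x axis and the number of contigs on the y axis, for contigs higher and lower at 24 hpi. In the class from 1 to 2 there were 805 contigs that rose and 1001 that fell, and above 5 there were 34 and 217.

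The contigs were also split into 4 classes of equal size by their mean log2 CPM over the 12 libraries. In the least abundant class, 2.18% were called higher and 9.29% lower. In the most abundant class, 4.47% were called higher and 5.56% lower. The share of rises was larger in each class than in the one below it. The median standard error of the log2 fold change was 0.206 in the most abundant class and 0.528 in the least abundant, so the shares of calls come with unequal precision. Most of the 12 libraries came after 0 hpi, so a contig that fell and stayed low is moved towards the lower classes. The shares by class are therefore not independent of the change itself.

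**Figure D2:**
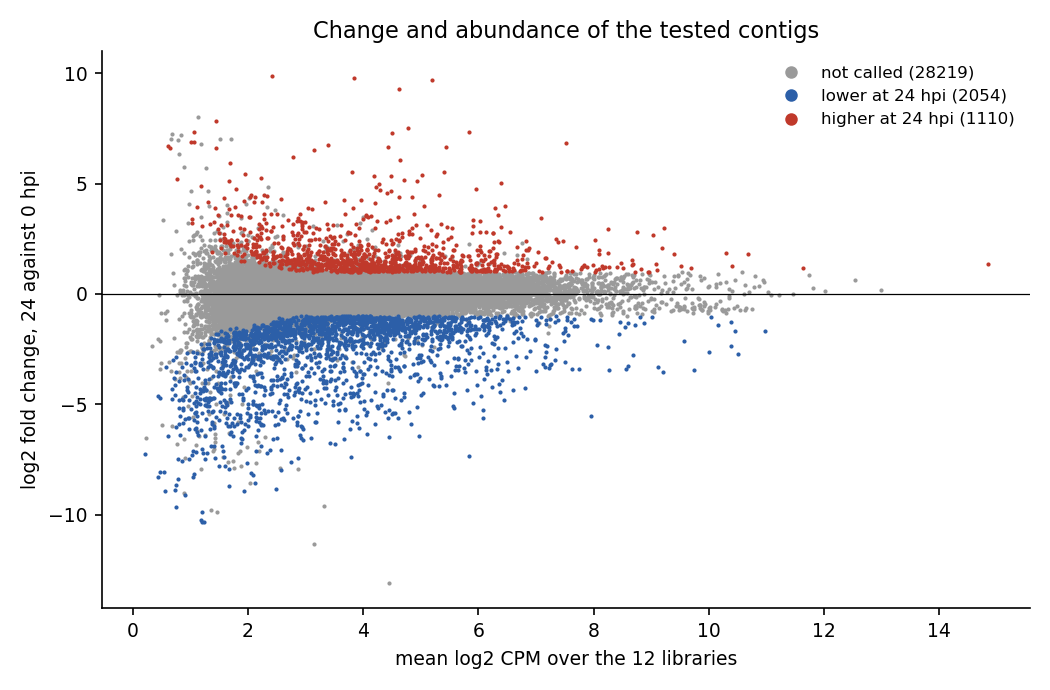
Each point is 1 of the 31383 tested contigs, with its mean log2 CPM over the 12 libraries on the x axis and its log2 fold change at 24 against 0 hpi on the y axis; colours mark the 1110 contigs called higher, the 2054 called lower and the remainder. The called changes reach -10.3 downwards and 9.87 upwards, and the most abundant contig of all, at the far right, is among those that rose.

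A large fold was not enough for a call. There were 56 contigs with an absolute log2 fold change above 5 that the test did not call, 45 of them lower and 11 higher at 24 hpi. In 39 of the 56, a single library held more than 90% of the summed CPM of the group in which the contig was high. The widest of these, a contig without a gene name that was singled out after its values were seen, had 0 CPM in all 3 libraries of 24 hpi and 1043, 0.533 and 0.293 CPM in those of 0 hpi. Its fitted log2 fold change of -13.1 ± 5.45 (SE) came from 0 hpi replicate 1 and had an adjusted p of 0.196 (edgeR).

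The contig that the study labels complement C3/5 was higher at 24 hpi. C3 and C5 are the related central proteins of the complement cascade, and in vertebrates C3 fragments coat foreign or damaged surfaces for uptake by phagocytes. TRINITY_DN18533_c0_g2_i2.p1 had 916, 989 and 826 CPM at 24 hpi, against 463, 283 and 399 CPM at 0 hpi. The groups did not overlap, and the log2 fold change was 1.25 ± 0.20 (SE, edgeR adjusted p = 0.000304). The other 4 contigs of its component, all in a neighbouring Trinity gene and without a label, rose too. Over the 5 contigs the log2 fold changes ran from 1.20 to 1.33, and their mean CPM summed to 3621 at 24 hpi and 1501 at 0 hpi. The reads of the labelled contig were divided with other contigs in 10 of the 12 libraries, so these 5 are not independent measurements. Tested against a fold change of 2 in place of 0 (glmTreat), the labelled contig was not called, with an adjusted p of 0.472.

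The contig labelled coagulation factor XIIIb fell almost to the limit of detection. In mammals the B subunit of factor XIII carries the A subunit, the transglutaminase that cross-links fibrin in a clot. TRINITY_DN13609_c0_g3_i1.p1 had 0.967, 0.511 and 1.60 CPM at 24 hpi, against 80.9, 132 and 173 CPM at 0 hpi. These levels are 4, 1 and 6 counts at 24 hpi, set against 227, 494 and 589 counts at 0 hpi. The log2 fold change was -6.81 ± 0.49 (SE, edgeR adjusted p = 5.27e-07), and the ratio of the summed counts at equal depth, 24 over 0 hpi, was 0.0085 (95% interval 0.00423 to 0.0153, counting error only). All 4 contigs of its component fell, each in a Trinity gene of its own, by log2 fold changes from -7.63 to -6.51. Their mean CPM summed to 2.74 at 24 hpi and to 323 at 0 hpi. By mean CPM among all tested contigs, the labelled contig stood at percentile 1.32 at 24 hpi and at percentile 96.9 at 0 hpi.

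The contigs labelled as vessel genes changed by an amount close to the threshold on the fold change, and whether they passed it depended on the setting. TIE receptors are tyrosine kinases that bind angiopoietins on vertebrate endothelium. TRINITY_DN13206_c4_g12_i1.p1, labelled TIE1/2, had 14.7, 10.7 and 14.1 CPM at 24 hpi, against 7.13, 5.33 and 7.63 CPM at 0 hpi, from 61, 21 and 53 counts and from 20, 20 and 26 counts. The groups did not overlap. The log2 fold change of 1.00 ± 0.26 (SE, edgeR adjusted p = 0.0157) lay at the threshold itself. It was 0.996 by DESeq2 (adjusted p = 0.0299), 0.918 without 24 hpi replicate 1, 0.993 without 24 hpi replicate 3 and 0.853 without 0 hpi replicate 2, so that each of these lost the call. The other 4 contigs of its component had log2 fold changes from 0.28 to 0.93, and none of them was called.

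Sox7, Sox17 and Sox18 form the SoxF group of transcription factors, which act in endothelial identity and vessel growth in vertebrates. TRINITY_DN16425_c0_g1_i6.p1, labelled Sox7/17/18, had 70.1, 50.6 and 78.7 CPM at 24 hpi, against 36.0, 29.1 and 37.6 CPM at 0 hpi. Its log2 fold change of 0.97 ± 0.20 (SE) had an adjusted p of 0.00263 (edgeR) but missed the threshold on the fold change. It passed without 24 hpi replicate 2 (1.14), without 0 hpi replicate 1 (1.04), without 0 hpi replicate 3 (1.07), and with upper quartile factors (1.01) or library size alone (1.03). The other contigs of its component had log2 fold changes of 0.54 and 0.71, and neither was called. Reads of the labelled contig were divided with others in 11 of the 12 libraries. Replicate 2 had the lowest level of the 3 libraries of 24 hpi for TIE1/2 and for Sox7/17/18. Its part in either result beyond these values was not tested. An Ets-1 contig is labelled as well, but its identifier matched 0 rows and it has no value here.

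The largest rises, by CPM and by log2 fold change, were those of a pair of contigs without a gene name. TRINITY_DN17129_c7_g1_i6.p1 was the most abundant contig at every time point and gained the most CPM. It had 33863, 45315 and 43135 CPM at 24 hpi, against 14937, 20441 and 12286 CPM at 0 hpi. The groups did not overlap, and the log2 fold change was 1.36 ± 0.24 (SE, edgeR adjusted p = 0.000704). This contig took 3.68, 4.27 and 4.15% of all counts at 24 hpi, against 1.42, 1.92 and 1.21% at 0 hpi, and it made up 31.8% of the CPM gained by all contigs that rose. Both other contigs of its component rose, by log2 fold changes of 1.17 and 1.34. With the glmTreat test it was not called, with an adjusted p of 0.328.

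TRINITY_DN14679_c9_g1_i15.p1 had the largest log2 rise under the rule for naming contigs. It held 192, 86 and 86 counts at 24 hpi and 0 counts in each of the 3 libraries of 0 hpi, and was at least 123-fold higher at 24 hpi when 3 counts over the 3 libraries of 0 hpi are taken as the floor. The edgeR adjusted p was 0.0182. The adjusted p was 0.074 without 24 hpi replicate 1, 0.0677 without 24 hpi replicate 2 and 0.0889 with limma-voom, so that the call was lost in each. Its Trinity gene has 7 tested contigs, of which it alone was called. Their summed level was 526 ± 220 CPM at 24 hpi and 328 ± 57.1 CPM at 0 hpi (SD, n = 3 each), and the summed gene had a log2 fold change of 0.68 that was not called (edgeR adjusted p = 0.0713). Reads of this contig were divided with others in 8 of the 12 libraries.

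The deepest fall under the rule for naming contigs was in a component of which most contigs fell. TRINITY_DN12277_c6_g3_i2.p10 had 0 counts in every library of 24 hpi and 268, 126 and 92 counts in those of 0 hpi, which is at least 160-fold lower at 24 hpi by the same floor (edgeR adjusted p = 0.000161). The 12 tested contigs of its Trinity gene are reading frames of only 2 transcripts. All 12 fell, and their summed level was 6.65 ± 1.32 CPM at 24 hpi and 696 ± 361 CPM at 0 hpi (SD, n = 3 each). Its component, which spans 16 Trinity genes, has 36 tested contigs on 17 transcripts, and 32 of them, on 15 transcripts, fell while 0 rose. The component summed to 150, 98.2 and 128 CPM in the libraries of 24 hpi and to 2276, 2515 and 1849 CPM in those of 0 hpi. Replicate 1 of 0 hpi was the highest for the named contig, whereas replicate 2 was the highest for the component as a whole.

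TRINITY_DN15549_c2_g1_i5.p1 lost the most CPM. It had 468, 867 and 768 CPM at 24 hpi, against 4609, 3970 and 5208 CPM at 0 hpi, where it ranked number 4 of all tested contigs by mean CPM. The log2 fold change was -2.71 ± 0.25 (SE, edgeR adjusted p = 1.31e-06). All 4 contigs of its Trinity gene fell, with log2 fold changes from -2.78 to -2.62, and their sum was 1461 ± 509 CPM at 24 hpi and 9407 ± 1323 CPM at 0 hpi (SD, n = 3 each). Reads of the named contig were divided with others in all 12 libraries.

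**Figure D3:**
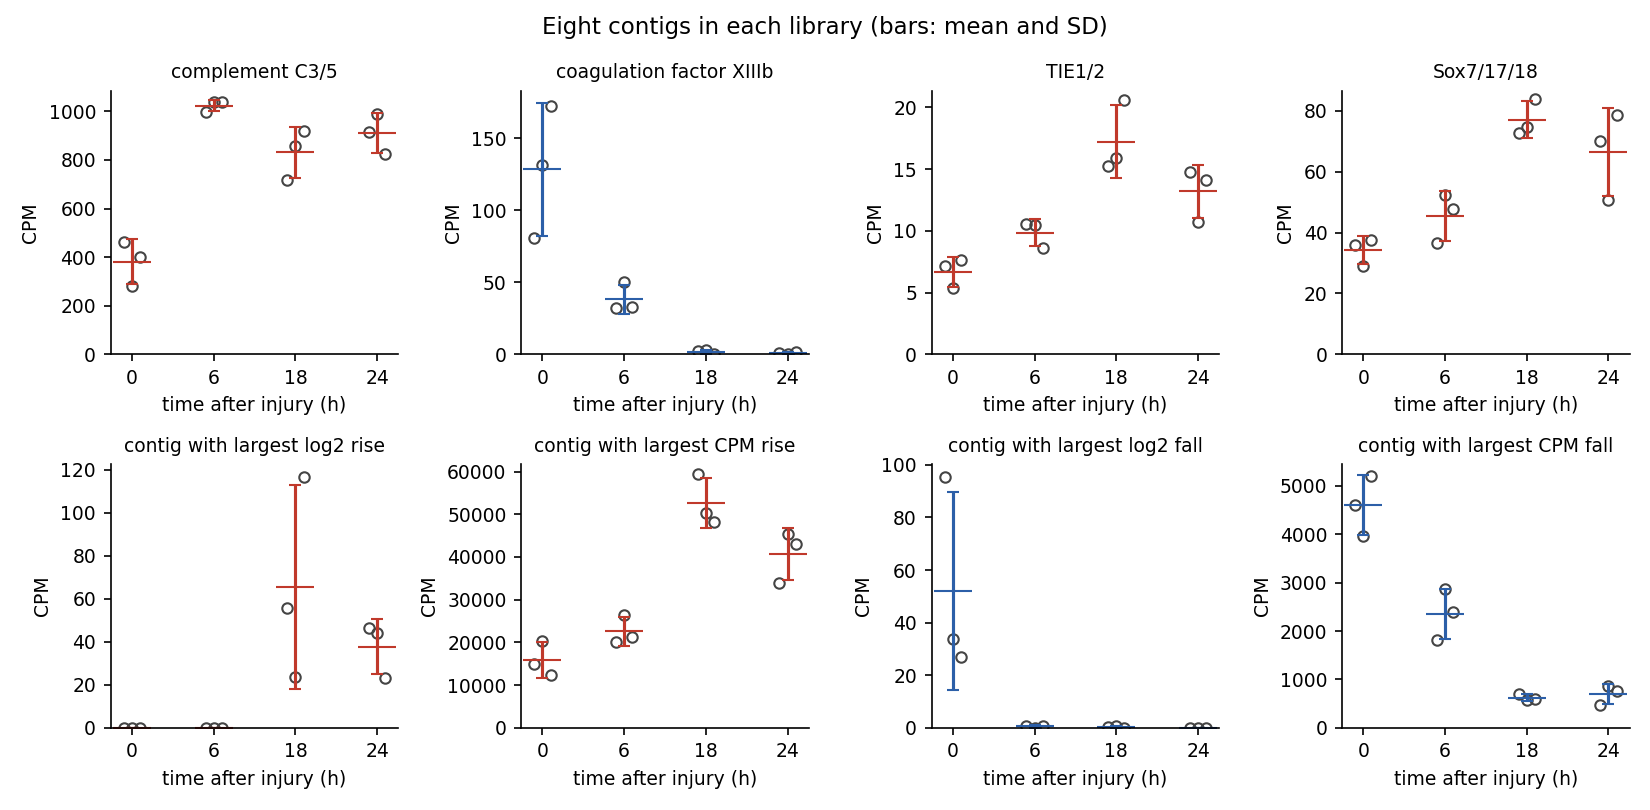
CPM of the 4 labelled contigs (top row) and of the 4 unnamed contigs picked by rule (bottom row) in each of the 12 libraries, by time after injury; circles are libraries, bars the mean and SD of 3. The libraries of 24 hpi lie above those of 0 hpi for complement C3/5, TIE1/2, Sox7/17/18 and both unnamed contigs that rose, and below them for coagulation factor XIIIb and both unnamed contigs that fell.

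A component had at least 2 called contigs in 656 cases, of which 412 (62.8%) held only contigs that fell, 221 only contigs that rose, and 23 both, where 64.9% of all calls were falls. At least 5 called contigs were found in 95 components, of which 74 held only falls, 16 only rises and 5 both. The 95 components accounted for 602 of the 2054 contigs that fell and for 107 of the 1110 that rose. Counted by transcripts in place of contigs, at least 5 called were found in 92 components, of which 72 held only falls, 16 only rises and 4 both. The most contigs that fell in 1 component were 32 and the most that rose 11. Contigs of a component share reads or are related in sequence, so these counts describe how the assembly arranges the calls, and the number of genes behind them may be smaller than the number of contigs.

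The component with the next most falls, without a gene name and described after its values were seen, had 23 tested contigs in 7 Trinity genes, all of which fell, but on only 9 transcripts, with a median log2 fold change of -5.54. It summed to 26.6, 18.4 and 33.1 CPM at 24 hpi and to 2373, 1113 and 897 CPM at 0 hpi, with replicate 1 the highest at 0 hpi. The component with the most rises had 11 of its 13 tested contigs higher, each on a transcript of its own, with a median log2 fold change of 1.20. It summed to 857, 1333 and 1153 CPM at 24 hpi and to 583, 391 and 491 CPM at 0 hpi. In neither component did the groups overlap.

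At the level of Trinity genes, 288 had at least 2 called contigs. In 196 of these every called contig fell, in 84 every called contig rose, and in 8 (2.78%) contigs were called in both directions. Called contigs on at least 2 transcripts were found in 258 Trinity genes, with 169, 81 and 8 in the same order. The gene with the widest gap, which carries no name and was singled out after its values were seen, had 3 contigs that rose and 1 that fell. One of its contigs had 0 CPM in all libraries of 24 hpi and 52.8, 52.5 and 49.3 CPM in those of 0 hpi. A different contig of the same gene had 85.3, 149 and 207 CPM at 24 hpi and 1.43, 0.533 and 0.880 CPM at 0 hpi, and a further pair of its contigs rose by log2 fold changes of 3.999 and 4.99. The gene as a sum had 254, 312 and 412 CPM at 24 hpi and 81.6, 64.8 and 70.1 CPM at 0 hpi, so its total was higher at 24 hpi in every library. The count of 8 was 14 without 24 hpi replicate 1, 5 without 24 hpi replicate 2, 5 without 0 hpi replicate 2, 2 with glmTreat and 0 among contigs with whole estimates alone.

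Of the contigs that were near-silent at 24 hpi, with at most 3 counts over its 3 libraries, 162 passed the filter on low counts, and 91 of them, on 87 transcripts, were called lower, where 6.54% of all tested contigs were. These 91 had 4.79 to 102 CPM at 0 hpi with a median of 16.8, 66 of them had more than 10 CPM there, and 21 had no count at all at 24 hpi. Of the contigs near-silent at 0 hpi, 59 passed the filter and 29 were called higher, where 3.54% of all tested contigs were. They had 1.89 to 285 CPM at 24 hpi with a median of 4.93, 8 of them had more than 10 CPM there, and 8 had no count at 0 hpi. Contigs near-silent at 1 time point passed the filter only through the libraries in which they were high, so their counts are a description. A group with a library left out holds fewer counts, and the 91 became 229 without 24 hpi replicate 1 and 195 without 24 hpi replicate 3, while the 29 became 52, 47 and 64 without 0 hpi replicates 1, 2 and 3.

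The contigs that appeared most strongly included a pair from a single Trinity gene without a name. They had 174, 102 and 92.3 CPM and 389, 283 and 183 CPM at 24 hpi, against at most 0.267 and 0.587 CPM in any library of 0 hpi. Their order at 24 hpi was the same, with replicate 1 the highest. A further contig, with 1412, 803 and 1217 CPM at 24 hpi and 12.8, 11.2 and 6.46 CPM at 0 hpi, had a log2 fold change of 6.82 and was the only contig with a log2 rise above 5 among the 10 that gained the most CPM. These 3 contigs were described after their values were seen.

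The suffix of a contig's name is the number of its reading frame on the transcript, and 6.74% of all tested contigs had a frame numbered 2 or above. This share was 5.41% among contigs that rose, 5.29% among contigs that fell by a log2 fold change of 1 to 2, 10.6% among those that fell by 2 to 5, and 21.2% (46 of 217) among those that fell by more than 5. The 46 came from 26 transcripts, and 37 of them shared their transcript with other rows. Among contigs that were the only tested row of their transcript, the share was 5.38% over all tested, 4.58% among those that rose, 4.39% and 7.55% among those that fell by 1 to 2 and by 2 to 5, and 5.45% (9 of 165) among those that fell by more than 5. The higher share among the deepest falls was therefore not seen once transcripts with several rows were set aside. A frame numbered 5 or above was listed for 38 tested contigs, of which 22 fell and 0 rose, where 6.54% of all tested contigs fell. These 22 lay on only 8 transcripts, and 11 of them lay on 3 transcripts of the component of TRINITY_DN12277_c6_g3_i2.p10. No test was made of these shares.

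Within 0 hpi, replicate 1 was the highest of the 3 libraries for 39.9% of the 2054 contigs that fell, and for 47.9% of the 217 with the deepest falls, against 31.0% of all tested contigs. The summed CPM of those 217 contigs was nevertheless close between libraries, at 286, 366 and 369 CPM at 24 hpi and 21192, 19525 and 18791 CPM at 0 hpi. Without 0 hpi replicate 1 the numbers of calls were 1099 higher and 1692 lower.

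The contigs that rose held 11.8 ± 0.725% of the CPM of a library at 24 hpi and 3.91 ± 0.421% at 0 hpi (SD, n = 3 each). The contigs that fell held 3.43 ± 0.190% at 24 hpi and 16.3 ± 1.15% at 0 hpi. Gains were concentrated, with 50% of the gained CPM in 16 contigs, while 50% of the lost CPM was spread over 108 contigs. Of the 100 most abundant contigs, by mean CPM over the 12 libraries, 7 rose and 13 fell, where 3.54% of all tested contigs rose and 6.54% fell. The lists of the 100 most abundant contigs at 24 hpi and at 0 hpi had 69 in common.

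**Figure D4:**
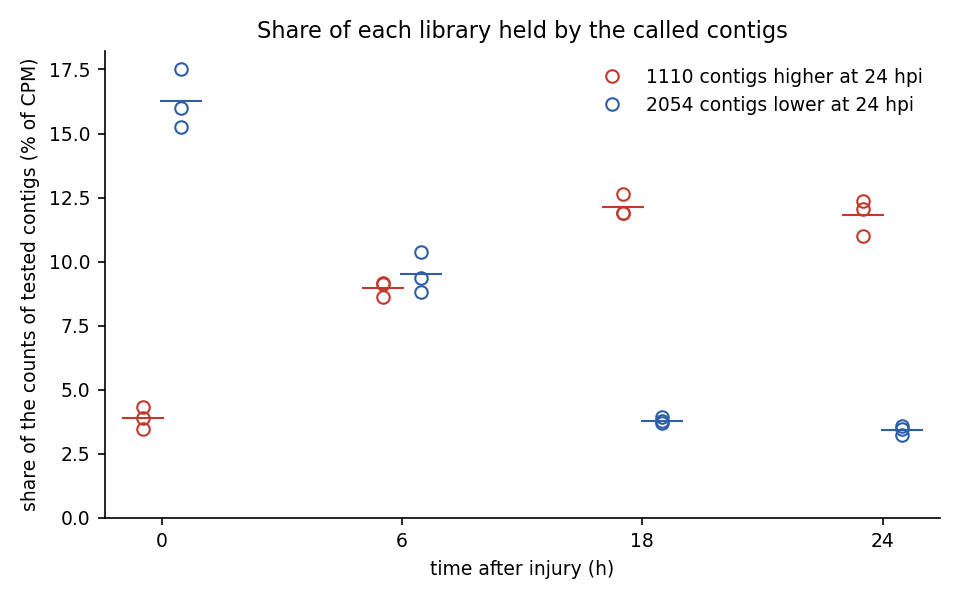
Share of the CPM of each library held by the 1110 contigs called higher and by the 2054 called lower at 24 against 0 hpi, in percent, by time after injury; circles are libraries and bars the mean of 3. The contigs that rose averaged 3.91, 8.97, 12.1 and 11.8% at 0, 6, 18 and 24 hpi, and the contigs that fell 16.3, 9.52, 3.79 and 3.43%.

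The time points between 0 and 24 hpi place these changes. The comparisons of 6, 18 and 24 hpi with 0 hpi all use the same 3 libraries of 0 hpi, so their values are given side by side only. For the contigs that rose at 24 hpi, the median log2 fold changes against 0 hpi were 1.11 at 6 hpi, 1.25 at 18 hpi and 1.50 at 24 hpi. For the contigs that fell they were -1.16 at 6 hpi, -2.03 at 18 hpi and -2.05 at 24 hpi. Both sets were selected by their change at 24 hpi, which favours a larger median there than at 6 and 18 hpi. Complement C3/5 had 382 ± 91.6, 1023 ± 24.0, 831 ± 104 and 910 ± 81.4 CPM at 0, 6, 18 and 24 hpi (SD, n = 3 each). Coagulation factor XIIIb had 129 ± 46.0, 38.3 ± 10.2, 1.88 ± 1.40 and 1.03 ± 0.547 CPM at the same times. TIE1/2 had 6.70 ± 1.21, 9.87 ± 1.10, 17.2 ± 2.94 and 13.2 ± 2.16 CPM, and Sox7/17/18 had 34.2 ± 4.52, 45.5 ± 8.07, 77.2 ± 5.98 and 66.5 ± 14.4 CPM.

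Libraries of 18 and 6 hpi have no part in the comparison of 24 with 0 hpi apart from the shared fit. Between 18 and 6 hpi, 628 of the 2054 contigs that fell at 24 hpi were called lower (30.6%) and 16 higher, where 4.76% of all tested contigs were called lower and 1.6% higher. Their median log2 fold change was -0.94, and 83.8% had a negative value. Of the 1110 contigs that rose at 24 hpi, 130 were called higher at 18 than at 6 hpi (11.7%) and 114 lower (10.3%). Their median log2 fold change was 0.21, and 59.1% had a positive value. The median over all tested contigs was -0.01.

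**Figure D5:**
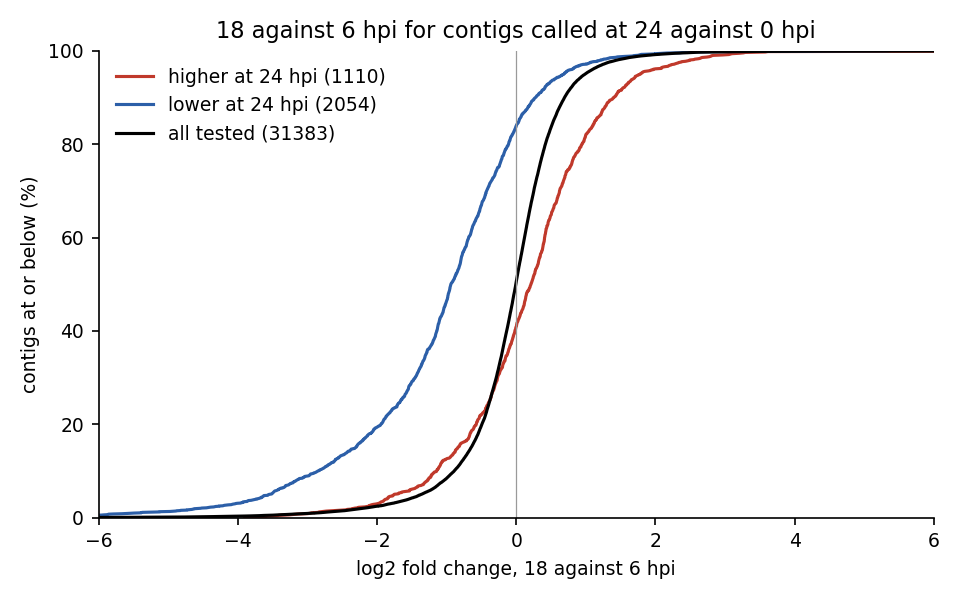
Cumulative share of contigs, in percent, at or below each log2 fold change of 18 against 6 hpi, for the contigs called higher and lower at 24 against 0 hpi and for all tested contigs; the x axis is drawn from -6 to 6. The curve of the contigs that fell lies to the left, with a median of -0.94, and that of the contigs that rose crosses the curve of all tested contigs on its lower side and has a median of 0.21.

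Set directly against 6 hpi, which shares the libraries of 24 hpi with the main comparison, the contigs that rose fell into parts. Of the 1110, 242 were higher at 24 hpi than at 6 hpi as well, and the median levels of these were 6.63, 8.37, 22.4 and 28.1 CPM at 0, 6, 18 and 24 hpi. A further 57 were higher than at 0 hpi but lower than at 6 hpi, with medians of 7.06, 67.2, 14.6 and 24.6 CPM. For the other 811 no difference from 6 hpi was called, with medians of 8.09, 19.0, 18.2 and 23.1 CPM. Of the 2054 contigs that fell, 648 were lower at 24 hpi than at 6 hpi too, with medians of 41.7, 28.4, 7.56 and 6.81 CPM. No call was made for 1396, whose medians were 23.2, 7.36, 5.33 and 4.75 CPM. The remaining 10 were higher at 24 hpi than at 6 hpi. In this comparison 2.01% of all tested contigs were called higher and 4.13% lower.

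Against 18 hpi, 8 of all tested contigs were called by edgeR (0.0255%), with 2203 at an unadjusted p under 0.05. The 8 were 7 higher (0.0223%) and 1 lower (0.00319%). Of the contigs that rose at 24 against 0 hpi, 4 were called higher than at 18 hpi and 0 lower, with a median log2 fold change of 0.33 and 880 of 1110 positive. Of the contigs that fell, 1 was called higher and 1 lower, with a median of -0.08. Over all tested contigs the median was 0.01, and 51.7% were positive. Both sets were selected by their levels in the same libraries of 24 hpi, which moves these values in the direction of the selection. They therefore do not show a further change after 18 hpi. None of the 8 named contigs was called between 24 and 18 hpi, and their log2 fold changes there had standard errors from 0.19 to 2.37.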

How the data were processed

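The authors filtered out ribosomal reads, trimmed the others (Trimmomatic 0.30, per the submitters' processing notes), built a Trinity assembly, kept TransDecoder reading frames (the deposited rows hold more than 1 for some transcripts), merged near-identical sequences and quantified each library with kallisto 0.43.1. The deposited values are estimated counts (expected counts) per contig, neither normalized nor divided by length; kallisto divides reads between similar contigs, which moves counts among variants of a gene. No genome was used.

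The estimated counts were rounded and analysed in R 4.3.3 with edgeR 4.0.16 (TMM, filterByExpr by time point, robust quasi-likelihood fit of all 12 libraries, Benjamini-Hochberg adjustment over 31383 contigs), with DESeq2 1.42.0 and limma 3.58.1 as alternatives. A log2 CPM used a prior count of 2. Standard errors were derived from the log2 fold change and its F statistic. Library totals ran from 2076577 to 3992984, which makes low contigs imprecise. On data simulated from these libraries over 30782 contigs, only 200 contigs were changed at 24 hpi. The test recovered 58 of 100 changed by a log2 fold change of 1.5 and 72 of 100 changed by 2, with 3 others called. In the measured libraries 3164 contigs were called, so the adjustment of p differs and these rates do not carry over.

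Contigs named are those labelled in the phylogenies of the study and, of contigs called with a mean of at least 50 counts and groups that do not overlap, in each direction the largest log2 fold change and the largest CPM difference. The TIE1/2 label is cut before its reading frame number; the contig used is the only one of its Trinity gene in the table. The members and lists were chosen with earlier results of these data known. Counts of replicates differed by more than sampling noise in every pair. P-values measure the spread between subclones of 1 strain. Enrichment was not run, and no sequences were read, as no annotation of these contigs was used here. Other alternatives were scalings, filters, thresholds, each library left out, a replicate block, Trinity gene sums, thinning, and leaving out abundant or divided contigs.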

Additional observations from a re-analysis of the deposited data

Results flagged for a closer look

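At 24 against 6 hpi, 3 of the named contigs were called by the limits on fold change and adjusted p (edgeR, adjusted over 31383 contigs). This test compares the change at 24 hpi with the change at 6 hpi, both against 0 hpi. TRINITY_DN17129_c7_g1_i6.p1 had a log2 fold change of 0.85 there (edgeR adjusted p = 0.0327), below the limit on the fold change. The unnamed contigs were picked by their change at 24 against 0 hpi. That choice used the same libraries of 24 hpi, so their p-values here are not independent of it. For coagulation factor XIIIb, TRINITY_DN13609_c0_g3_i1.p1, the log2 fold change at 24 against 6 hpi was -5.06 (adjusted p = 2.82e-05), and 3 of 3 libraries of 24 hpi lay below all of 6 hpi. For TRINITY_DN14679_c9_g1_i15.p1 it was 9.87 (edgeR adjusted p = 0.0357), with 0 counts in all libraries of 6 hpi. The size of that log2 fold change rests on how the fit treats 0 counts. For TRINITY_DN15549_c2_g1_i5.p1 it was -1.75 (adjusted p = 0.000203), with 3 of 3 libraries of 24 hpi below all of 6 hpi.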

How the results depend on the processing

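The numbers of contigs that rose (1110) and fell (2054) stayed within 1.5 times under each other tool, scaling, filter and library left out, from 1016 to 1273 and from 1692 to 1987 with a library left out, and in the fits on contigs none was called in the opposite direction. They changed with the threshold, to 1920 that rose with the adjusted p alone, and to 298 that rose and 969 that fell with glmTreat. The share of calls that fell was 60.6 to 64.8% with a library left out, 66.7% with limma-voom, 62.1% with upper quartile factors, 60.4% with library size alone, 63.0% with a mean of at least 20 counts, 68.3% with only the 6 libraries, 56.7% with the adjusted p alone and 76.5% with glmTreat. Contigs near-silent at 0 hpi that rose numbered 28 to 64 with a library left out, 15 with limma-voom, 6 with a mean of at least 20 counts, 15 as Trinity gene sums and 14 among whole estimates. Contigs near-silent at 24 hpi that fell numbered 93 to 229 with a library left out, 29 with a mean of at least 20 counts and 146 after thinning. Trinity genes called in both directions numbered 5 to 14 with a library left out, 2 with glmTreat and 0 among whole estimates. Contigs with at least 5 counts at equal depth differed by -622 in place of -298 (exact permutation test, p = 0.4 and p = 0.2). The cause of these shifts was not tested where the setting does not itself remove contigs or counts. Correlations between the deviations of same-numbered libraries of 24 and 0 hpi were 0.014, -0.139 and -0.052. The labels do not say whether equal numbers share a batch, and these correlations cannot settle it. With the replicate block 1046 contigs rose and 1946 fell. In that fit the log2 fold change of TIE1/2 was 0.989 and the edgeR adjusted p of TRINITY_DN14679_c9_g1_i15.p1 was 0.102, both no longer called. Over all alternatives, the named contigs kept their status, called or not called, in 138 values, lost a call in 18 and gained one in 6. Values of Sox7/17/18 that stayed uncalled, as in the fit reported, are among the 138. No log2 fold change switched sign. TIE1/2 also lost its call with RLE factors, a mean of at least 20 counts, only the 6 libraries and thinning (log2 fold changes 0.92 to 0.99). The median count per contig was 23 to 50 in these libraries, which limits what can be seen of contigs with few counts.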
